A study of Homo sapiens with 6 samples.

Results

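BACH1 and NFE2L2 (the gene for NRF2), their partner MAFG and 7 genes of the antioxidant response that they control were examined in the RNA of K562 cells in which endogenous MYB was knocked down and a mutant MYB was expressed in its place. The 10 genes were chosen by symbol, as a pathway, but with earlier results of these data known, so the choice was not blind to the values. The paper itself names BACH1 as a gene that rose with 2KR-MYB. Each of the 10 was found by its Ensembl identifier among the 58288 genes of the deposited table. K562 is a human erythroleukemic cell line derived from chronic myelogenous leukemia. Single cell clones had been made that stably expressed 3xFLAG-2KR-Myb-HA, in which the lysines that accept SUMO are changed to arginine, or 3xFLAG-ANAA-Myb-HA, in which the motif that binds SUMO is changed. All libraries came from cells grown under 200 µg/ml G418 and transfected with si2992, an siRNA against endogenous MYB, and RNA was taken 24 h later. There were 3 biological replicates of the 2KR-MYB rescue and 3 of the ANAA-MYB rescue. Each mutant was represented by 1 clone, so an effect of the mutant and a property of the clone cannot be told apart. Libraries of the control, of the knockdown alone and of other MYB versions were not analysed here, so a value says how the mutant rescues differed and not what either did to the knockdown.

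BACH1 is a heme-binding repressor and NRF2 is an activator, and both bind the antioxidant response element as dimers with a small MAF protein such as MAFG. When oxidants or electrophiles disable KEAP1, the adaptor that marks NRF2 for degradation, or when heme displaces BACH1, the element passes from repression to activation. Its classical targets break down heme, store iron, make glutathione, reduce quinones and keep thioredoxin and peroxiredoxins reduced, and in erythroid cells they work beside a high flux of heme and iron.

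The core of the element, TGACNNNGC, was searched on both strands of the RefSeq promoters (GRCh38.p14, 250 bases before to 50 bases after each gene start) to show where the pathway's own sequence lies among these genes. Promoters were found for 8 of the 10 genes, 12 promoters in all, and 3 of the 12, belonging to GCLM and TXNRD1, held the core. Of 35116 RefSeq promoters of the same length, 13.3% held it. The 4 matches are shown with 10 flanking bases on either side and the core in capitals, each read 5′ to 3′ on the strand that carries it, and a match is a description of the letters and not a site shown to be bound.
GCLM, chr1:93909446-93909474, plus strand, opposite to the gene, centre at -30 from the gene start: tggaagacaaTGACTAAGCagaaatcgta
TXNRD1, chr12:104215670-104215698, plus strand, as the gene, centre at -95: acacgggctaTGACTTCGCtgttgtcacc
TXNRD1, chr12:104215761-104215789, minus strand, opposite to the gene, centre at -4: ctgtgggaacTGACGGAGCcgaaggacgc
TXNRD1, chr12:104286920-104286948, minus strand, centre at -98 from a second, downstream start: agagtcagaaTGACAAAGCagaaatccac
The promoters of BACH1, NFE2L2, MAFG, NQO1, GCLC and SRXN1 held no match in this window. Sequence outside the window was not searched, so a core further from the gene start would be missed. The promoters found had a GC content of 53.7% to 80.0%, apart from one of the 3 promoters of BACH1, at 34.3%.

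The values are FPKM, fragments scaled to transcript length and library size. The scaling between libraries is not given in the sources used here, and a listed 0 can be a failed estimate. Comparisons of levels between libraries and between genes carry these limits. The depth of the libraries is unknown, and the FPKM of a library summed to between 579920 and 633662. Mitochondrial genes held 8.42% to 12.8% of that sum in the 2KR-MYB rescue, with replicate 3 lowest, and 10.3% to 10.98% in the ANAA-MYB rescue. The 12634 genes whose mean over the libraries reached 1 FPKM were tested on log2(FPKM + 1) with limma, with Benjamini-Hochberg adjustment over all of them and a threshold of 0.01. Log2 fold changes are 2KR-MYB minus ANAA-MYB on that scale, where the added 1 shrinks the change of genes at low levels. MYB itself, to which the rescue transcripts also map, measured 69.0, 61.2 and 67.5 FPKM with 2KR-MYB and 53.6, 55.3 and 62.0 FPKM with ANAA-MYB, and its log2 fold change of 0.21 missed the threshold (limma adjusted p = 0.062). Of 8 erythroid markers, all were tested, and their summed level ran from 1510 to 1622 FPKM with 2KR-MYB and from 1766 to 2149 FPKM with ANAA-MYB. Of markers of other cells, GP9 and PF4 of megakaryocytes, MS4A1 of B cells and CDH5 of endothelium were listed at 0 in all libraries. Of 4 monocyte and macrophage markers, CD14 and CSF1R stayed under 0.3 FPKM, while CD68 (29.1 ± 2.34 against 84.9 ± 2.44 FPKM, SD, n = 3 each) and LYZ (10.6 ± 1.496 against 21.9 ± 2.57 FPKM) were past the threshold and lower in the 2KR-MYB rescue. The sum of these 4 was 38.8 to 41.1 FPKM with 2KR-MYB and 106 to 109 FPKM with ANAA-MYB. The epithelial marker EPCAM was at 43.1 to 50.2 FPKM with CDH1 under 0.1 FPKM, the stromal marker COL1A1 was past it and higher (2.13 ± 0.764 against 0.553 ± 0.126 FPKM), and the sums of the megakaryocyte and lymphoid lists stayed under 5 FPKM. The part of these markers in the results was not tested.

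Of the 10 genes, BACH1 passed the threshold and was higher in the 2KR-MYB rescue, by 1.26-fold in mean FPKM. NFE2L2, NQO1 and GCLM were 1.11-fold to 1.13-fold higher there with libraries that did not overlap, and SRXN1 was 0.900-fold with libraries that did not overlap, but none of these passed. MAFG, GCLC, TXNRD1 and FTH1 had libraries that overlapped between the rescues, and HMOX1 was too low to test. Thus 1 of 9 tested genes passed, where 13.0% of all tested genes did, 5.57% higher and 7.42% lower in the 2KR-MYB rescue. The libraries of the rescues did not overlap for 5 of the 9, where this held for 44.9% of all tested genes, so both counts were close to the background. The median log2 fold change of the 9 was 0.073, beside -0.015 over all tested genes.

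**Figure D1:**
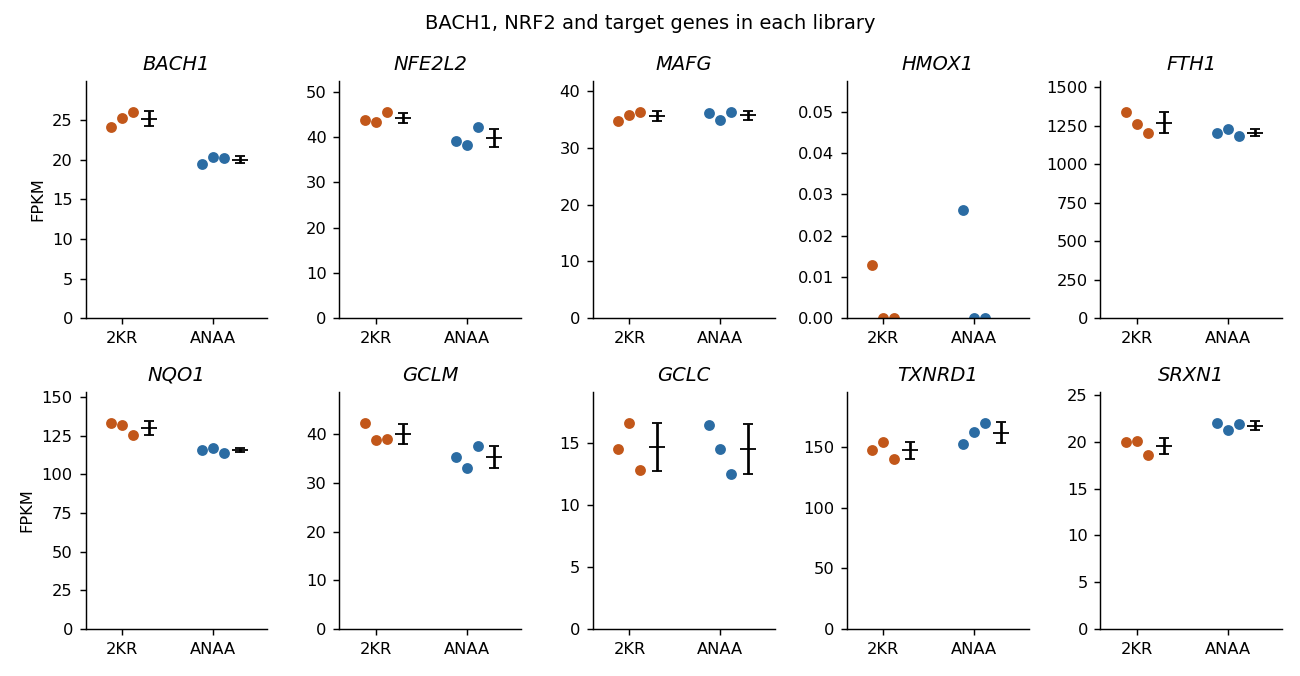
Level of each of the 10 genes (FPKM, linear axis from 0) in each library, with orange points for the 2KR-MYB rescue, blue points for the ANAA-MYB rescue and bars for the mean and SD of 3 libraries (none for HMOX1, listed at 0 in 4 libraries). The 3 orange points lie above the 3 blue points for BACH1, NFE2L2, NQO1 and GCLM, below them for SRXN1, and mix with them for MAFG, GCLC, TXNRD1 and FTH1.

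BACH1 (ENSG00000156273, chromosome 21, 29298922 to 29361894, GRCh38), the repressor, stood at 24.1, 25.3 and 26.0 FPKM with 2KR-MYB and 19.5, 20.3 and 20.2 FPKM with ANAA-MYB. The 3 libraries with 2KR-MYB were all above those with ANAA-MYB. The means were 25.1 ± 0.943 and 20.0 ± 0.414 FPKM (SD, n = 3 each), and the log2 fold change was 0.32 (standard error 0.050, 95% interval 0.20 to 0.43, limma adjusted p = 0.0031). In bulk RNA, more cells that express a gene and more RNA of it per cell cannot be told apart. The exact two-sided permutation test gave p = 0.1, the smallest that 3 libraries against 3 can give. The log2 fold change stayed between 0.29 and 0.36 over the alternatives, but the limma adjusted p rose to 0.015 without replicate 2 and 0.011 without replicate 3 of the 2KR-MYB rescue. It rose to 0.0135 without replicate 1 and 0.012 without replicate 2 of the ANAA-MYB rescue. Transcripts annotated within or beside the gene, BACH1-IT1, BACH1-IT2, BACH1-IT3 and BACH1-AS1, were at 0 to 0.461 FPKM.

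NFE2L2 (ENSG00000116044, chromosome 2, 177230303 to 177264727), which encodes the activator NRF2, stood at 43.7, 43.3 and 45.5 FPKM with 2KR-MYB and 39.1, 38.1 and 42.1 FPKM with ANAA-MYB. The highest ANAA-MYB library, replicate 3, came close to the lowest 2KR-MYB library, but the groups did not overlap. The log2 fold change of 0.15 (standard error 0.052, 95% interval 0.028 to 0.27) had a limma adjusted p of 0.070. NRF2 is controlled mainly through the stability of the protein, which these data do not measure. MAFG (ENSG00000197063, chromosome 17, 81918270 to 81931244), the small MAF partner of both, stood at 34.6, 35.7 and 36.3 FPKM with 2KR-MYB and 36.1, 34.8 and 36.2 FPKM with ANAA-MYB. Its groups overlapped in full, and the 95% interval of its log2 fold change was -0.11 to 0.097 (limma adjusted p = 0.93). The estimate itself, -0.0067, changed sign under 5 alternatives, 2 of them other scalings of the libraries, and stayed between -0.025 and 0.044.

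HMOX1 (ENSG00000100292, chromosome 22, 35381096 to 35394207), the inducible heme oxygenase and the best known target of BACH1, was listed at 0 in replicates 2 and 3 of both rescues. It was at 0.0128 FPKM in replicate 1 of the 2KR-MYB rescue and at 0.0263 FPKM in replicate 1 of the ANAA-MYB rescue. The table also lists EEF1A1, a translation factor that every cell uses, at 0 in all 6 libraries, and GPX1 at no more than 0.102 FPKM, so a listed 0 can be a failed estimate. HMOX1 was therefore neither tested nor given a fold change. The genes on either side of it had values of 6.83 to 8.23 FPKM (TOM1) and 62.1 to 76.6 FPKM (MCM5).

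FTH1 (ENSG00000167996, chromosome 11, 61964285 to 61967634), the heavy chain of the iron store ferritin, was the most abundant of the 10. Its levels were 1338, 1260.5 and 1202 FPKM with 2KR-MYB and 1201, 1226 and 1183 FPKM with ANAA-MYB. Replicates 1 and 2 of the 2KR-MYB rescue lay above the ANAA-MYB libraries and replicate 3 among them, and the log2 fold change of 0.073 (95% interval -0.061 to 0.21) had a limma adjusted p of 0.39. FTH1 has near-identical processed pseudogenes that could share its reads. The 25 of them in the table summed to 0.916 to 2.49 FPKM, and how the counting split shared reads is not given in the sources used here, so the level of FTH1 is uncertain.

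NQO1 (ENSG00000181019, chromosome 16, 69709401 to 69726560), a quinone reductase and standard readout of NRF2, measured 133, 132 and 125 FPKM with 2KR-MYB and 116, 117 and 114 FPKM with ANAA-MYB. The groups lay apart, with means of 130.05 ± 4.35 and 116 ± 1.41 FPKM (SD, n = 3 each). Its log2 fold change was 0.17 (standard error 0.044, 95% interval 0.067 to 0.27), and its limma adjusted p of 0.025 passed a threshold of 0.05 but not 0.01. NQO1-DT, transcribed divergently from it, was at 0 to 0.111 FPKM.

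Glutathione synthesis begins with an enzyme of a modifier and a catalytic subunit. GCLM (ENSG00000023909, chromosome 1, 93885199 to 93909430), the modifier, measured 42.4, 38.9 and 39.0 FPKM with 2KR-MYB and 35.4, 33.0 and 37.7 FPKM with ANAA-MYB, groups that lay narrowly apart. Its log2 fold change was 0.18 (standard error 0.062, 95% interval 0.034 to 0.32, limma adjusted p = 0.069). GCLC (ENSG00000001084, chromosome 6, 53497341 to 53545101), the catalytic subunit, measured 14.5, 16.6 and 12.8 FPKM with 2KR-MYB and 16.5, 14.5 and 12.5 FPKM with ANAA-MYB. It varied most among replicates, with coefficients of variation of 13.1% and 13.7%, where the other tested genes of the 10 had 1.22% to 6.61%. The 95% interval of its log2 fold change, -0.25 to 0.28, was the widest of the 9, and GCLC-AS1, which overlaps it, was listed at 0 in all libraries.

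TXNRD1 (ENSG00000198431, chromosome 12, 104215779 to 104350307), the cytosolic thioredoxin reductase whose promoters carry 3 of the 4 matches shown above, measured 148, 154 and 140.0 FPKM with 2KR-MYB. It measured 153, 163 and 170.2 FPKM with ANAA-MYB. Replicate 2 of the 2KR-MYB rescue exceeded replicate 1 of the ANAA-MYB rescue, and the log2 fold change of -0.13 (standard error 0.058, 95% interval -0.27 to -0.0025) had a limma adjusted p of 0.12. SRXN1 (ENSG00000271303, chromosome 20, 646615 to 653200), which restores over-oxidized peroxiredoxins, measured 20.0, 20.1 and 18.6 FPKM with 2KR-MYB and 22.1, 21.2 and 22.0 FPKM with ANAA-MYB. All 2KR-MYB libraries lay below the ANAA-MYB libraries, with a log2 fold change of -0.15 (standard error 0.052, 95% interval -0.27 to -0.026, limma adjusted p = 0.072).

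**Figure D2:**
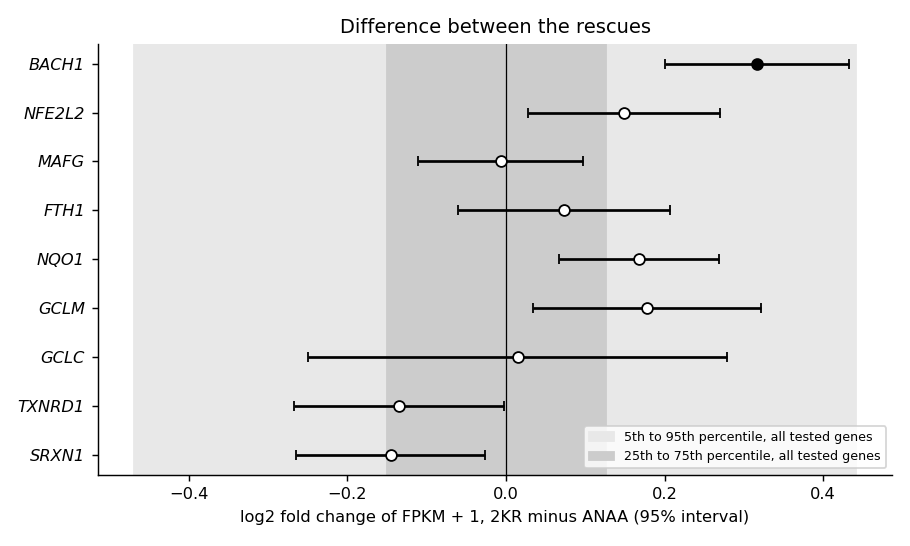
Log2 fold change of FPKM + 1, 2KR-MYB minus ANAA-MYB, for the 9 tested genes with 95% intervals from limma, over bands for the 5th to 95th and the 25th to 75th percentile of all tested genes. BACH1, the filled point at 0.32, is past the threshold and inside the wider band, which runs from -0.47 to 0.44, and the 8 open points are not past it.

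Over the 6 libraries, the order of mean levels per length was FTH1 (1235 FPKM), TXNRD1 (155 FPKM), NQO1 (123 FPKM), NFE2L2 (42.0 FPKM), GCLM (37.7 FPKM), MAFG (35.6 FPKM), BACH1 (22.6 FPKM), SRXN1 (20.7 FPKM), GCLC (14.6 FPKM) and HMOX1. The ranges over libraries overlapped between NFE2L2 and GCLM, between GCLM and MAFG and between BACH1 and SRXN1. Within libraries, NFE2L2 was above GCLM in 6 of 6 and GCLM was above MAFG in 4 of 6. BACH1 was above SRXN1 in all 3 libraries with 2KR-MYB and below it in all 3 with ANAA-MYB, so the order of this pair differed between the rescues. All other neighbours had ranges that did not overlap.

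Ratios of gene pairs within a library do not depend on the scaling between libraries. BACH1 was at 0.552, 0.584 and 0.571 of NFE2L2 with 2KR-MYB and at 0.499, 0.532 and 0.479 of it in the ANAA-MYB rescue. The repressor was below the activator in every library, and its share was higher in every 2KR-MYB library, by 0.18 on the log2 scale (exact two-sided permutation test, p = 0.1, adjusted p = 0.13 over 4 pairs). FTH1 was at 0.301, 0.285 and 0.315 of FTL, the light chain, with 2KR-MYB and at 0.248, 0.244 and 0.238 of it in the ANAA-MYB rescue. These groups lay apart by 0.30 on the log2 scale, with the same exact permutation p of 0.1. The ratio of TXNRD1 to its substrate TXN was 0.578, 0.613 and 0.559 in the 2KR-MYB rescue and 0.641, 0.648 and 0.762 in the ANAA-MYB rescue, lower in every 2KR-MYB library by a log2 difference of -0.23 (exact permutation p = 0.1), which was -0.14 without replicate 3 of the ANAA-MYB rescue. The ratio of GCLM to GCLC, at 2.92, 2.34 and 3.05 against 2.15, 2.27 and 3.01, overlapped between the rescues (exact permutation p = 0.4), and its log2 difference of 0.17 ran from 0.073 to 0.32 with 1 library left out. With 3 libraries a side none of these tests could reach 0.05, and the ratio of NQO1 to HMOX1 was not computed because HMOX1 was listed at 0.

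Beyond the 10 genes, 84 further genes of the pathway were followed in 7 lists, of which 83 were found and 75 were tested. Of the 75, 19 passed the threshold (25.3%, beside 13.0% of all tested genes), 10 higher and 9 lower in the 2KR-MYB rescue. The lists, like the 10 genes, were chosen with earlier results of these data known. These shares are therefore a description, and the lists were not tested as sets. After upper quartile scaling the split was 12 higher and 7 lower, while over all tested genes the share of calls that were higher in the 2KR-MYB rescue went from 42.9% to 54.5%. Among genes whose mean reached 10 FPKM, 14 of 59 list genes passed, beside 13.3% of all tested genes at that level. The median log2 fold change of the 75 was -0.065. Without a filter on low values 7 of 82 list genes passed, beside 942 of all 28536 tested genes. With 1 library left out, 8 to 13 of 74 to 76 list genes passed, beside 852 to 1204 of 12597 to 12664 tested genes. Without replicates 1, 2 and 3 of the 2KR-MYB rescue the list counts were 8, 9 and 12, beside 852, 892 and 1204 of all tested genes. Without those of the ANAA-MYB rescue the list counts were 12, 10 and 13, beside 992, 902 and 1045. BACH2, NFE2, MGST1, AKR1C2 and AKR1C3 kept the call under every alternative that could test them, and the other 14 lost it under 1 to 10 of the 14 alternatives.

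Among partners and regulators, 5 of 16 genes passed, beside 13.0% of all tested genes, with a median log2 fold change of -0.092. BACH2, the lymphoid relative of BACH1, was at 7.97 ± 0.685 FPKM with 2KR-MYB and 4.35 ± 0.139 FPKM with ANAA-MYB (log2 fold change 0.74, limma adjusted p = 0.00045). Both BACH genes were thus higher in the 2KR-MYB rescue, BACH2 at a level below that of BACH1. NFE2, an erythroid activator that also pairs with small MAF proteins, was lower, at 69.1 ± 3.49 against 91.7 ± 3.60 FPKM (log2 fold change -0.40, limma adjusted p = 0.0014). Of the 8 erythroid markers 4 were past the threshold, beside 13.0% of all tested genes, and 3 of the 4 were lower. Among the lower were GATA1 (78.2 ± 2.96 against 107 ± 3.44 FPKM) and KLF1 (19.2 ± 1.44 against 30.7 ± 0.698 FPKM). The part of these markers in the NFE2 result was not tested. HIF1A, the hypoxia factor, was lower (27.8 ± 1.77 against 35.4 ± 0.689 FPKM, log2 fold change -0.34, limma adjusted p = 0.0036). FBXL17, an F-box protein linked to the turnover of BACH1, was lower by a log2 fold change of -0.33, and BTRC, an F-box protein that recognizes NRF2, was higher by 0.34. The limma adjusted p of both lay just under the threshold, at 0.00991 and 0.00996, and 10 of 14 alternatives for FBXL17 and 8 of 14 for BTRC lost the call. KEAP1, the sensor, was at 31.6 ± 1.83 against 35.5 ± 1.77 FPKM and missed the threshold (log2 fold change -0.17, limma adjusted p = 0.074), as did the other 10 genes of this list that were not past it.

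Of 15 tested genes of glutathione synthesis and use, 3 passed and were higher and 2 passed and were lower. Over all tested genes these shares were 5.57% and 7.42%. The median log2 fold change of the list was 0.0092. The pair that forms the cystine importer was higher in the 2KR-MYB rescue. SLC7A11, its transport subunit, measured 14.9, 16.1 and 11.9 FPKM with 2KR-MYB and 9.36, 7.60 and 8.80 FPKM with ANAA-MYB (log2 fold change 0.67, limma adjusted p = 0.0044). SLC3A2, its chaperone subunit, was at 202 ± 18.2 against 142 ± 4.54 FPKM (log2 fold change 0.50, limma adjusted p = 0.0015). These log2 fold changes were larger than those of GCLM and GCLC, the subunits of the enzyme that uses the imported cysteine, though the difference between them was not tested. MGST1, a membrane-bound glutathione transferase, measured 51.2, 51.5 and 54.2 FPKM with 2KR-MYB and 91.6, 111 and 102 FPKM with ANAA-MYB (log2 fold change -0.94, limma adjusted p = 0.00011). Its relative MGST3 went the other way, at 103 ± 2.14 against 82.3 ± 5.07 FPKM (log2 fold change 0.33, limma adjusted p = 0.0037). GGT1, which breaks down glutathione outside the cell, was lower (7.80 ± 0.490 against 10.7 ± 0.182 FPKM, log2 fold change -0.42, limma adjusted p = 0.0026). The call was lost under 6 of 14 alternatives for SLC7A11 and for MGST3, and the call for MGST1 held under all 14.

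In the thioredoxin and peroxiredoxin list, 1 of 12 genes passed, beside 13.0% of all tested genes, and the median log2 fold change was -0.018. The gene that passed was GLRX, a glutaredoxin that reduces proteins bound to glutathione. It was at 8.10 ± 1.16 FPKM with 2KR-MYB and 4.25 ± 0.483 FPKM with ANAA-MYB (log2 fold change 0.79, limma adjusted p = 0.0016). TXN, thioredoxin itself, was at 253 ± 2.53 against 238 ± 13.8 FPKM and missed the threshold (limma adjusted p = 0.24). The list of NADPH supply, which feeds both systems, had a median log2 fold change of -0.11. TALDO1, an enzyme of the pentose phosphate pathway, was lower, at 159 ± 5.68 against 195 ± 4.27 FPKM (log2 fold change -0.29, limma adjusted p = 0.0028). The 10 nearest tested genes of TALDO1 had a median log2 fold change of -0.16, with 2 of the 10 above 0.

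Of 11 genes of heme breakdown and iron, 1 passed and was higher and 1 passed and was lower. Over all tested genes these shares were 5.57% and 7.42%. The median log2 fold change of the list was -0.13. BLVRA, the biliverdin reductase that acts after heme oxygenase, was higher (31.1 ± 2.00 against 23.8 ± 2.04 FPKM, log2 fold change 0.37, limma adjusted p = 0.0081). TFRC, the transferrin receptor and also one of the erythroid markers, was lower (217 ± 7.26 against 266 ± 16.3 FPKM, log2 fold change -0.29, limma adjusted p = 0.0078), and 9 of 14 alternatives lost that call. FTL measured 4451, 4418 and 3818 FPKM with 2KR-MYB and 4840, 5028 and 4962 FPKM with ANAA-MYB. All 2KR-MYB libraries lay below the ANAA-MYB libraries, replicate 3 furthest, but the log2 fold change of -0.23 had a limma adjusted p of 0.071 and moved to -0.049 after quantile normalization.

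Of 12 tested quinone, carbonyl and conjugation enzymes, 3 passed and were higher and 1 passed and was lower. Over all tested genes these shares were 5.57% and 7.42%. The median log2 fold change of the list was 0.019. AKR1C3, an aldo-keto reductase, measured 4.56, 4.32 and 3.57 FPKM with 2KR-MYB and 1.25, 0.766 and 1.31 FPKM with ANAA-MYB, and its log2 fold change of 1.29 was the largest among the tested genes of the 7 lists (limma adjusted p = 0.00044). AKR1C2 was at 25.8 ± 1.58 against 17.0 ± 1.31 FPKM (log2 fold change 0.58, limma adjusted p = 0.00098), and AKR1C1 at 58.5 ± 5.54 against 50.4 ± 3.50 FPKM missed the threshold (limma adjusted p = 0.090). The AKR1C genes are near-identical neighbours on chromosome 10, and how the counting split reads among them is not given in the sources used here, so their separate values are uncertain. UGDH, which makes the sugar used in glucuronidation, was higher (29.3 ± 1.84 against 21.6 ± 1.03 FPKM, log2 fold change 0.42, limma adjusted p = 0.0022), and all 10 of its nearest tested genes also had log2 fold changes above 0. The neighbours of other list genes past the threshold went both ways. Their median had the opposite sign to the gene for BLVRA (-0.096) and TFRC (0.091), and the same sign for NFE2 (-0.13) and BTRC (0.084). The part of the neighbours in these results was not tested. NQO2, the relative of NQO1, was lower (33.7 ± 1.12 against 42.3 ± 2.35 FPKM, log2 fold change -0.32, limma adjusted p = 0.0045). Of 3 tested genes of superoxide and peroxide removal, 0 passed the threshold in limma, with a median of -0.0043, and 2 had an adjusted p under 0.05 (26.9% of all tested genes did), CAT at 54.4 ± 1.37 against 48.2 ± 0.898 FPKM and GPX4 at 175 ± 12.7 against 202 ± 5.45 FPKM. CAT and GPX4 are named after their values were seen, and the same 2 genes had an unadjusted p under 0.05.

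**Figure D3:**
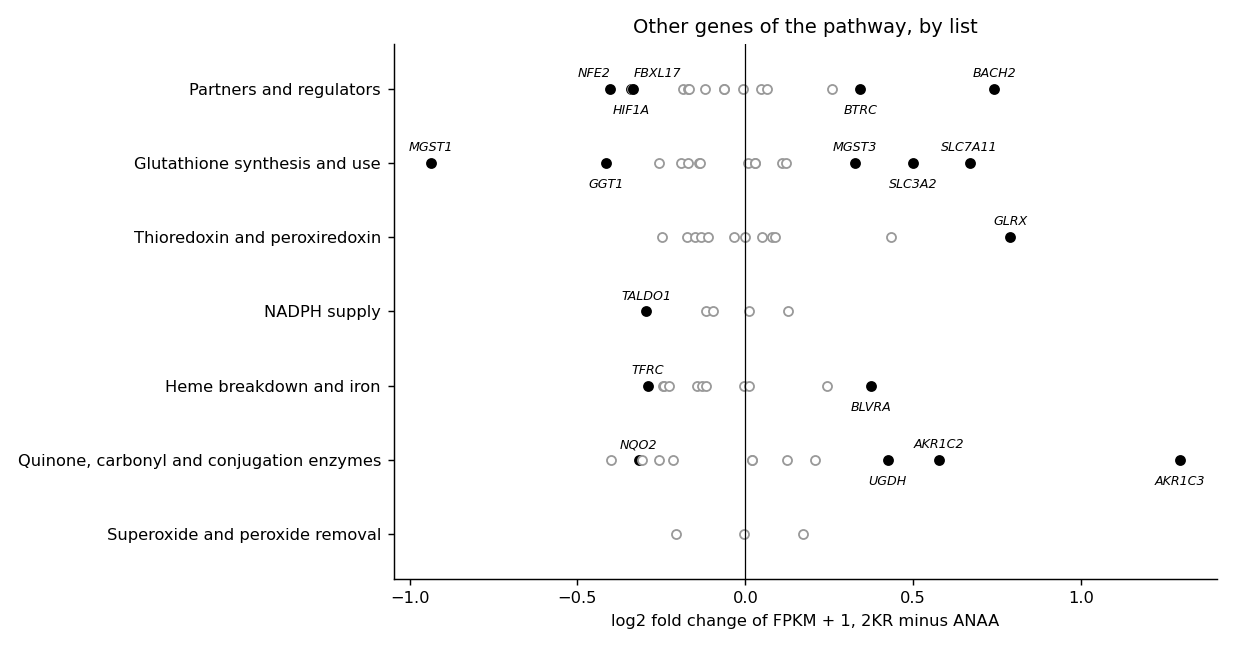
Log2 fold change of FPKM + 1, 2KR-MYB minus ANAA-MYB, for 74 of the 75 tested genes of the 7 further lists, with filled and named points past the limma threshold of 0.01 and open points not past it. Filled points lie on both sides of 0 in 4 of the 7 lists, and MGST1 (-0.94) and AKR1C3 (1.29) lie furthest out.

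Since each rescue was 1 clone, the 10 nearest tested genes of each gene, 5 on either side by RefSeq position, were set beside it. Those of BACH1 had a median log2 fold change of 0.029, with 5 of the 10 above 0 and 1 past the threshold, while BACH1 itself was at 0.32. Those of MAFG had a median of -0.25, with 0 of the 10 above 0 and 3 past the threshold in limma, while MAFG was at -0.0067. Those of TXNRD1 had a median of 0.13 while TXNRD1 was at -0.13, and those of GCLM a median of 0.12 while GCLM was at 0.18. For NFE2L2, NQO1, GCLC, SRXN1, FTH1 and HMOX1 the medians of the neighbours lay between -0.049 and 0.080.

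The genes whose levels followed BACH1 most closely over the 6 libraries, by Pearson r of log2(FPKM + 1), were KLHL12 (r = 0.9994), SEL1L (r = 0.9989) and CHCHD3 (r = 0.9987). All 3 were higher in mean level in the 2KR-MYB rescue, and SEL1L and CHCHD3 passed the threshold (limma adjusted p of 0.0017 and 0.00082). For NFE2L2 they were ZNF776 (r = 0.9949), CNOT6L (r = 0.9947) and DMAP1 (r = 0.9946), none of which passed. These were the highest values among all tested genes over 6 points that fall into the 2 rescues, and they are a description.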

How the data were processed

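Poly(A) RNA was sequenced from strand-specific libraries as 150 bp pairs. Per the labels, the authors used bcl2fastq 2.18.0.12, Trimmomatic 0.36, TopHat2 2.1.1 on GRCh38, and Cufflinks with Cuffdiff 2.2.1. The authors deposited 1 FPKM value for each gene in each replicate. The sources used here do not give the annotation, the strand setting or the scaling between libraries. The 6 columns of the 2KR-MYB and ANAA-MYB rescues were used, and 12 other columns of per-sample values were not used. Values under 0.5 FPKM showed no common step between libraries (at most 3.9% of their ratios within 1% of the most frequent), so no reads were recovered and depth stays unknown, and no interval for counting error is given.

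Genes whose mean reached 1 FPKM were fitted in R 4.3.3 by limma 3.58.1, with the rescue as the factor, log2(FPKM + 1) as the response, a trended empirical Bayes prior and Benjamini-Hochberg adjustment. The threshold of 0.01 is the one used in the paper. Single genes and ratios were compared by exact two-sided permutation tests (scipy 1.17.1). Symbols matched 55854 of 58288 identifiers. Positions and promoters came from RefSeq GRCh38.p14, by symbol, and positions were found for 11539 tested genes (91.3%). On simulated data for this comparison (12634 genes, 200 of them changed), 37% of genes changed by 0.5 and 88% of those changed by 1 on the log2 scale were recovered, with 0% of 125 calls false. The simulation changed far fewer genes than the 1642 called in the data. Its noise was drawn independently for each gene and library, with no effect of a clone or of scaling. These rates therefore check the fit and do not carry over to the calls made here.

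The genes and lists were chosen with earlier results of these data known. Named are the 10 genes, every gene of the 7 further lists past the threshold (at most 8 a list, by smallest adjusted p), KEAP1, FTL, TXN and MYB, and the 3 genes most alike to BACH1 and NFE2L2 (none for HMOX1, which was not tested). Marker lists cover erythroid, megakaryocyte, lymphoid, monocyte and macrophage, epithelial, and endothelial and stromal cells. The values of 2 single genes of these lists are not reported here. Markers, and transcripts beside a named gene, are given as checks. Alternatives tried were a pseudocount of 0.1 or 0.01, omission of the filter, a filter at a mean of 5 FPKM, upper quartile and quantile scaling, a robust variance prior, a replicate block, each library left out and a threshold of 0.05.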

Additional observations from a re-analysis of the deposited data

How the results depend on the processing

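BACH1 kept its direction under every alternative and its call under all except 4 that left out a library. The count of all tested genes past the threshold was 1642, and 942 with no filter on low values, 3402 at a threshold of 0.05 and 852 to 1204 with 1 library left out. Of the 9 tested genes of the 10, 1 passed, 2 at 0.05 and 0 to 1 with 1 library left out. Of the list genes, 19 of 75 passed, and 32 of 75 at 0.05. With no filter 7 of 82 list genes passed, and with 1 library left out 8 to 13 of 74 to 76. With fewer libraries the fit has fewer degrees of freedom, and with no filter the adjustment covers more genes. MAFG ranged from -0.0247 to 0.0444, and turned to 0.0356 after upper quartile scaling, 0.0444 after quantile normalization, 0.0111 without replicate 1 of the 2KR-MYB rescue, and 0.0014 and 0.0031 without replicates 1 and 3 of the ANAA-MYB rescue. GCLC ranged from -0.081 to 0.1046, and turned to -0.0747 without replicate 2 of the 2KR-MYB rescue and to -0.081 without replicate 3 of the ANAA-MYB rescue. Neither gene was called under any alternative, and the cause was not tested. Same-numbered libraries did not deviate together (Pearson r across genes of -0.052, -0.035 and -0.003), so the numbers name libraries and do not pair them. With the replicate number as a block, 1089 of all tested genes passed, 1 of the 9 and 14 of the 75. Over the single genes, 348 recomputed values kept their direction and side of the threshold and 78 no longer reached it. Over the single lists, 64 recomputed counts stayed within 1.5 times the main count and 41 did not. In the ratios the direction held under all alternatives. The depth is unknown, and 3 libraries a rescue from 1 clone each limit every comparison.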
